A study of Drosophila melanogaster with 4 samples.

Results

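The ecdysone receptor and response genes were taken by symbol from a table of 17490 Drosophila melanogaster genes. The list names the receptor EcR, its partner usp, the coactivator tai, the response genes br, Eip74EF, Eip75B, ftz-f1, Hr39 and E23, and the hormone-degrading enzyme gene Cyp18a1. Of these 10 symbols, 9 were found, and br, which encodes the Broad zinc finger proteins, was not analysed here because no row has that symbol. The values come from translating ribosome affinity purification (TRAP) of ovaries, in which a GFP-tagged ribosomal protein is expressed in a chosen lineage and anti-GFP beads recover its ribosomes with the mRNAs on them. In the soma group the genotype was tj:gal4, UAS RPL10-GFP, so the tagged ribosomes came from traffic jam-expressing somatic cells, mainly follicle cells. In the germline group it was Nos:Gal4Vp16, UAS:RPL10-GFP, which drives the tag in germ cells. Each group had 2 libraries, each from ovaries pooled over many females, and the labels give no age, treatment or control immunoprecipitate. Tissue, Gal4 driver and fly genotype cannot be told apart in this design.

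Ecdysone is the main steroid hormone of insects, and in the adult ovary it is made largely by follicle cells. Its active form binds EcR, a nuclear receptor that acts on DNA as a heterodimer with Ultraspiracle (usp), the fly counterpart of the vertebrate RXR proteins, and recruits coactivators such as Taiman (tai). The bound receptor switches on a first set of transcription factor genes, which in turn control later genes, and this cascade is known in the ovary for its roles in egg chamber progression, border cell migration and eggshell patterning.

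The libraries differed in depth. Whole reads could be recovered from the deposited FPKM (fragments per kilobase of exon, scaled here so that the median gene ratio, not the total, is equal between libraries) for 95.9% of the genes above 0, including all 9 genes described here. Reads on rRNA made up 6.34% of soma replicate 1 and 56.1% to 74.7% of the other 3 libraries. Outside rRNA, 16675983 reads were recovered in soma replicate 1 and 615390 to 1283288 in the other 3 libraries, and 1 read on a gene of 1 kb was worth 0.0233 FPKM in the first and 0.276 to 0.811 FPKM in the others. Of 10 follicle cell markers, 9 were called higher in the soma, including tj, and zfh1 was not. The summed level of these 10 markers was 11190 and 14601 FPKM in the soma against 874 and 848 FPKM in the germline. Of 10 germ cell markers, 8 were tested and 3 were called higher in the germline (AGO3, aub and nos). Their summed level, most of it from dhd, was 828 and 785 FPKM in the soma against 2637 and 2813 FPKM in the germline. The germ cell marker BicC was listed at 0 in both germline libraries. Of 7 muscle markers, 6 were in the table, and their sum was 3.62 and 18.1 FPKM in soma replicates 1 and 2 and 13.8 and 1.57 FPKM in germline replicates 1 and 2. The haemocyte markers He and NimC1 were at 0 in all 4 libraries, and Hml and eater were above 0 only in soma replicate 1, at 0.0218 and 0.0212 FPKM. Of 4 fat body markers, Fbp1 and Lsp2 were at 0 in all 4 libraries, and the summed level of the list was 0.405 to 1.65 FPKM. The part of other cell types in the results below was not tested.

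Genes were called at a limma adjusted p under 0.05 (Benjamini-Hochberg over the 8823 genes whose mean reached 0.1 FPKM, 2-sided, on log2(FPKM + 0.1)). By this rule 5 of the 9 genes were higher in the soma, namely tai, Eip74EF, Eip75B, ftz-f1 and Cyp18a1, where 8.64% of all genes tested were called in that direction. No gene of the 9 was called higher in the germline, where 3.59% of all genes tested were called. EcR, usp, Hr39 and E23 did not pass. The median log2 fold change, soma minus germline, was 2.04 over the 9 genes and 0.04 over all genes tested. In 7 of the 9 genes both soma libraries lay above both germline libraries, as they did in 29.6% of all genes tested, and in 1 gene, E23, both germline libraries lay above both soma libraries, as in 25.8%. At more than 5-fold and an unadjusted limma p under 0.05, 3 of the 9 were called in the soma (tai, Eip74EF and Cyp18a1), against 9.41% of all genes tested, and none in the germline, against 1.08%. The calls at an adjusted p under 0.05 need all 4 libraries. With any 1 library left out, those calls of the 9 genes were not kept. The calls over all genes tested fell in these fits as well, in both directions. The smallest 2-sided exact permutation p that 2 libraries a group can give for any 1 gene is 0.333. Fewer cells of a type and less RNA per cell cannot be told apart in such samples.

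**Figure D1:**
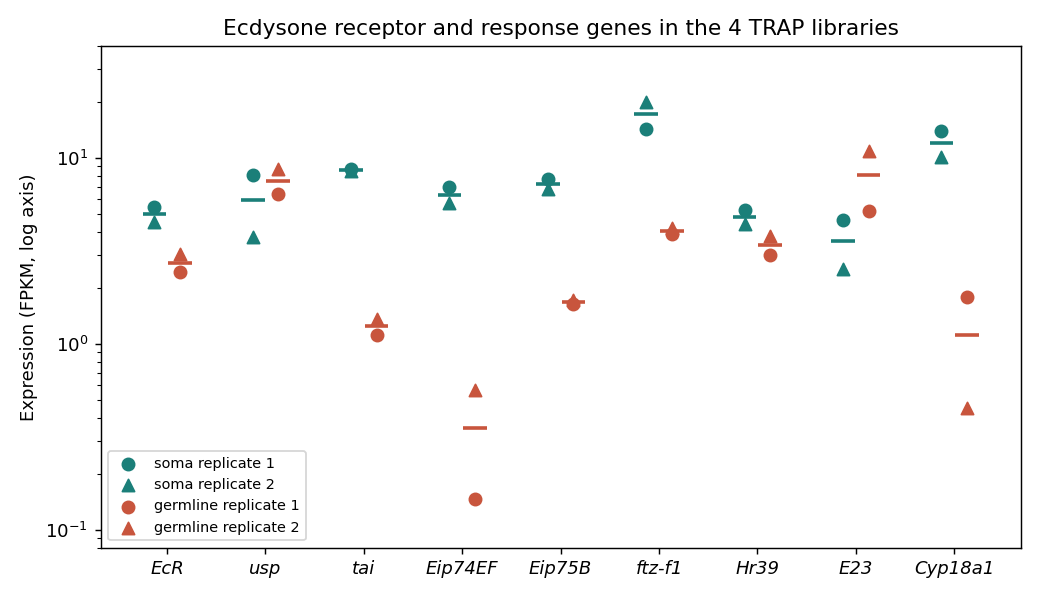
Expression of the 9 genes in FPKM (log axis) in soma replicates 1 and 2 and germline replicates 1 and 2, with horizontal lines for the group means (n = 2). The soma and germline points are widely separated for tai, Eip74EF, Eip75B, ftz-f1 and Cyp18a1, lie close for EcR and Hr39, and overlap for usp, while E23 is higher in both germline libraries.

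The receptor gene itself was read in the libraries of both groups, and carry-over between the lineages was not tested. EcR occupies 6087873 to 6169087 on the minus strand of chromosome 2R (coordinates here are those of BDGP6.54). It was at 5.44 and 4.49 FPKM in the soma libraries, from 2319 and 55 reads, and at 2.43 and 3.03 FPKM in the germline libraries, from 71 and 109 reads. Both soma libraries were above both germline libraries, but the exact 95% Poisson intervals of the lower soma library, 3.38 to 5.84 FPKM, and of the higher germline library, 2.48 to 3.65 FPKM, overlapped. The soma mean was 4.96 ± 0.671 FPKM and the germline mean 2.73 ± 0.420 FPKM (SD, n = 2 each), so the germline level was 55.0% of the soma level. For EcR the log2 fold change was 0.84, with a 95% interval of -0.37 to 2.05 that includes 0 (limma adjusted p = 0.341).

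The partner gene usp lies on chromosome X from 2038798 to 2042311 on the minus strand. Its values were 8.11 and 3.74 FPKM in the soma against 6.38 and 8.71 FPKM in the germline. The groups overlapped, and the soma replicates stood further apart than their counting error, with 95% Poisson intervals of 7.63 to 8.62 FPKM from 1058 reads and 2.04 to 6.27 FPKM from 14 reads. The fitted log2 fold change of usp was -0.43 (95% interval -1.63 to 0.77, limma adjusted p = 0.612), and without soma replicate 2 it was 0.12, so its sign rests on that library. In the annotation usp shares 265 exon bases with Actn on the same strand and 196 with CG4313 on the other strand. Actn was at 13.4 to 20.3 FPKM in the 4 libraries, and how reads in the shared bases were counted is not given in the sources used here.

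The coactivator gene tai was called higher in the soma. It encodes a p160 coactivator that binds ligand-loaded EcR and is known for its need in border cell migration, and it lies on chromosome 2L from 9166778 to 9250211 on the plus strand. It was at 8.72 and 8.51 FPKM in the soma (4455 and 125 reads) against 1.11 and 1.37 FPKM in the germline (39 and 59 reads). The replicates of each group lay close together, and the soma mean of 8.61 ± 0.144 FPKM was 6.95 times the germline mean of 1.24 ± 0.178 FPKM (SD, n = 2 each). On the log2 scale tai differed by 2.71 (limma adjusted p = 0.0215, standard error 0.52), and by 2.57 to 2.84 with 1 library left out. With limma-voom on the recovered reads, scaled by library totals that included rRNA, the call was lost (adjusted p = 0.197). Whether tai differed more than EcR was not tested.

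Within each library, levels per length of the 3 receptor complex genes can be set side by side. The ratio of tai to EcR was 1.60 and 1.90 in the soma libraries against 0.458 and 0.451 in the germline libraries. The ratio of EcR to usp was 0.670 and 1.2 in the soma against 0.381 and 0.347 in the germline. So tai was read above EcR in both soma libraries and below it in both germline libraries, and usp was read above EcR in all libraries but soma replicate 2, the one with 14 usp reads. These ratios are descriptions of 4 libraries, without a test.

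Eip74EF and Eip75B are early genes, induced directly by the receptor. Eip74EF, which encodes ETS-domain transcription factors, lies on chromosome 3L from 17558672 to 17619325 on the minus strand. It was at 6.94 and 5.74 FPKM in the soma (2781 and 66 reads) against 0.146 and 0.561 FPKM in the germline (4 and 19 reads). The germline libraries lay far below the soma libraries, and their own values came from so few reads that the 95% Poisson intervals, 0.0397 to 0.373 and 0.338 to 0.877 FPKM, overlapped. The soma mean, 6.34 ± 0.854 FPKM, was 17.9 times the germline mean of 0.354 ± 0.294 FPKM (SD, n = 2 each). Eip74EF had a log2 fold change of 3.99 (limma adjusted p = 0.0243, standard error 0.80), with 3.28 to 4.70 when 1 library was left out. This was the largest of the 9 with all 4 libraries and a pseudocount of 0.1, but Cyp18a1 was above it with a pseudocount of 1 (2.68 against 2.45) and without germline replicate 1 (4.44 against 3.28), and the difference between these genes was not tested. The call of Eip74EF was lost with all genes above 0 (limma adjusted p = 0.0582) and without the eBayes trend (limma adjusted p = 0.0526).

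Eip75B encodes haem-binding nuclear receptors related to the vertebrate REV-ERB proteins and lies on chromosome 3L from 17950953 to 18064696 on the minus strand. Its level was 7.71 and 6.81 FPKM in the soma (4452 and 113 reads) against 1.64 and 1.72 FPKM in the germline (65 and 84 reads). All 4 libraries read the gene well, and its germline level was 23.2% of the soma level. Its log2 fold change was 2.04 (limma adjusted p = 0.0458, standard error 0.51), close to the threshold, and 5 of the 9 other settings tried on the 4 libraries moved it past 0.05, the highest being 0.479 with limma-voom on the recovered reads. The 2 early genes were nearly level in the soma, with an Eip75B to Eip74EF ratio of 1.11 and 1.19. In the germline libraries this ratio was 11.3 and 3.07.

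ftz-f1 and Hr39 encode nuclear receptors of the same subfamily, that of the vertebrate SF-1 and LRH-1 proteins, of which ftz-f1 was called and Hr39 was not. ftz-f1, a gene that is known for making tissues competent to answer the next ecdysone pulse, lies on chromosome 3L from 18750607 to 18801309 on the minus strand. Its soma mean was the highest of the 9 genes. In soma replicate 1, though, its 95% Poisson interval, 13.9 to 14.7 FPKM, overlapped that of Cyp18a1, 13.4 to 14.7 FPKM. The values of ftz-f1 were 14.3 and 20.0 FPKM in the soma (5276 and 212 reads) against 3.89 and 4.21 FPKM in the germline (98 and 131 reads). The groups did not overlap, and the difference was 2.04 on the log2 scale (limma adjusted p = 0.0181, standard error 0.37). The call was lost without the eBayes trend (limma adjusted p = 0.0667) and with limma-voom on the recovered reads (adjusted p = 0.492). The annotated noncoding gene lncRNA:CR45939 shares 2521 exon bases with ftz-f1 on the same strand, and reads there cannot be assigned to either.

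Hr39, known from its part in the female reproductive tract, lies on chromosome 2L from 21237250 to 21259675 on the plus strand. Its level was 5.24 and 4.39 FPKM in the soma (1121 and 27 reads) against 3.0 and 3.82 FPKM in the germline (44 and 69 reads). The soma libraries were above the germline libraries by little, and the 95% Poisson interval of soma replicate 2, 2.90 to 6.39 FPKM, takes in both germline values. Hr39 had a log2 fold change of 0.49 (95% interval -0.67 to 1.65, limma adjusted p = 0.556). The ratio of ftz-f1 to Hr39 was 2.73 and 4.56 in the soma libraries against 1.29 and 1.10 in the germline libraries.

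The remaining genes act on the hormone or on the strength of the response. Cyp18a1 encodes a cytochrome P450 that hydroxylates ecdysteroids and so inactivates them, and it lies on chromosome X from 18688538 to 18693042 on the minus strand. It was at 14.0 and 10.1 FPKM in the soma (1835 and 38 reads) against 1.79 and 0.452 FPKM in the germline (16 and 5 reads). The germline replicates rested on few reads, with 95% Poisson intervals of 1.02 to 2.90 and 0.147 to 1.06 FPKM, and both were under the soma values. The soma mean of Cyp18a1, 12.1 ± 2.77 FPKM, was 10.8 times the germline mean of 1.12 ± 0.943 FPKM (SD, n = 2 each). The fitted log2 fold change of Cyp18a1 was 3.56 (limma adjusted p = 0.0243, standard error 0.71), with 2.67 to 4.44 when 1 library was left out. Without the eBayes trend (limma adjusted p = 0.0868) and with limma-voom on the recovered reads (adjusted p = 0.0958) the call was lost.

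E23 encodes an ABC transporter that is induced by ecdysone and, when overexpressed, dampens the response to it. It lies on chromosome 2L from 3334875 to 3354829 on the minus strand and was the only gene of the 9 with both germline libraries above both soma libraries. Its values were 4.64 and 2.52 FPKM in the soma (1025 and 16 reads) against 5.15 and 10.9 FPKM in the germline (78 and 204 reads). The replicates of each group differed beyond their counting error, and soma replicate 1 was close to germline replicate 1, with 95% Poisson intervals of 4.36 to 4.93 and 4.07 to 6.43 FPKM. E23 had a log2 fold change of -1.11, and its 95% interval, -2.46 to 0.24, includes 0 (limma adjusted p = 0.263).

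**Figure D2:**
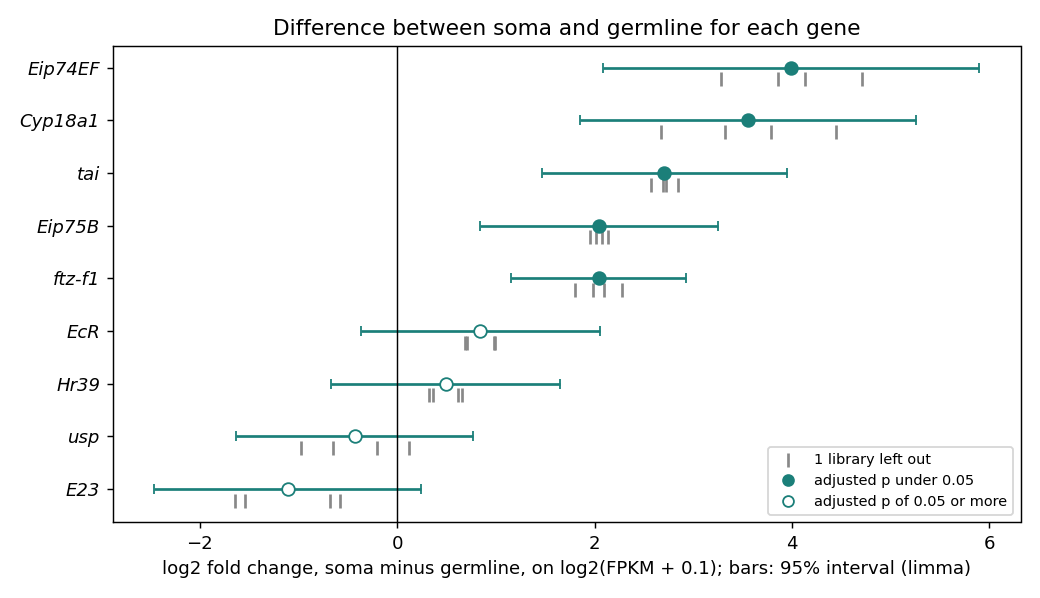
Log2 fold change, soma minus germline, of the 9 genes with its 95% interval from limma (filled circles, adjusted p under 0.05; open circles, 0.05 or more), and the 4 values with 1 library left out as grey marks. Eip74EF at 3.99 and Cyp18a1 at 3.56 stand furthest to the soma side and E23 at -1.11 to the germline side, and the marks of usp fall on both sides of 0.

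The order of the 9 genes by level differed between the lineages. In the soma the means ran from ftz-f1 at 17.2 FPKM through Cyp18a1, tai, Eip75B, Eip74EF, usp, EcR and Hr39 to E23 at 3.58 FPKM. The library values of Eip75B and Eip74EF overlapped, as did those of EcR and Hr39 and of Hr39 and E23, those of EcR and E23 also overlapped, and the wide values of usp overlapped those of Eip75B, Eip74EF, EcR, Hr39 and E23, so these places are not separated by the spread. In the germline the means ran from E23 at 8.04 FPKM through usp, ftz-f1, Hr39, EcR, Eip75B, tai and Cyp18a1 to Eip74EF at 0.354 FPKM. There E23 overlapped usp, Hr39 overlapped EcR, and Cyp18a1 overlapped Eip75B, tai and Eip74EF. Among the 8823 genes tested, the mean level of ftz-f1 was at the 74.9th percentile in the soma and the 37.8th in the germline, Eip74EF at the 46.1st and the 16.7th, and EcR at the 39.5th and the 32.0th.

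The germline level as a share of the soma level can be read beside the same share for genes that mark follicle cells or germ cells. For 9 of the 10 follicle cell markers it was 3.74% to 13.2%, the exception being zfh1 at 299.5%. For tj it was 7.25%. Eip74EF at 5.58% and Cyp18a1 at 9.27% lay inside that range and tai at 14.4% just above it. The germline means of Eip74EF (4 and 19 reads) and Cyp18a1 (16 and 5 reads) rest on few reads, so their shares are imprecise. Eip75B and ftz-f1 were at 23.2% and 23.6%, and EcR and Hr39 at 55.0% and 70.8%. For the 8 germ cell markers tested this share was 119.5% to 355.3%, and over all genes tested its median was 93.0%. E23 at 224.6% lay inside the germ cell marker range. So did usp at 127.4%, but grk was the only germ cell marker below it. The soma and germline libraries of usp and of grk overlapped, and neither usp nor E23 was called. Neither the part of somatic RNA carried over into the germline immunoprecipitates nor that of germline RNA in those of the soma was tested.

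**Figure D3:**
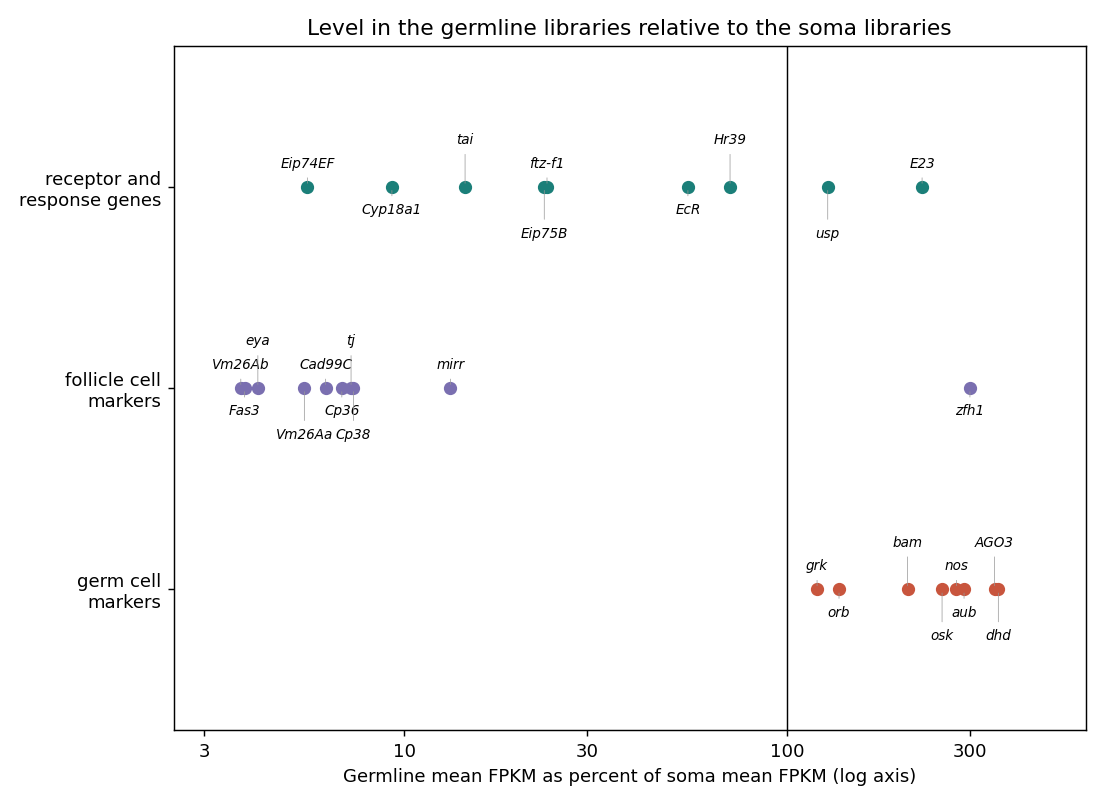
Germline mean as a percent of the soma mean in FPKM (log axis, vertical line at equal levels) for the 9 receptor and response genes, 10 follicle cell markers and 8 germ cell markers. Eip74EF (5.58%) and Cyp18a1 (9.27%), both from few germline reads, lie among the follicle cell markers other than zfh1. EcR (55.0%) and Hr39 (70.8%) lie between those markers and the germ cell markers. The value of E23 (224.6%) lies among the germ cell markers. That of usp (127.4%), whose soma and germline libraries overlapped, lies above only grk of them.

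The 9 genes are long for this genome. Their median span was 50703 bases, from 3514 for usp to 113744 for Eip75B, against 2469 bases over the 8646 tested genes with an annotation. Their exons covered a median of 8581 bases against 1900.5 for those genes, and the annotation gives them 2 to 7 transcripts each. The 5 genes called higher in the soma had a median span of 60654 bases and the other 4 of 21190 bases. Values are per gene, so the isoforms of EcR, Eip74EF, Eip75B and ftz-f1, which differ in their first exons, are summed.

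The 3 tested genes closest to EcR in level and pattern, by the root mean square difference of log2(FPKM + 0.1) over the 4 libraries, were Bet5 (0.07), CG11448 (0.12) and CG13671 (0.16). Bet5 was at 5.74 and 4.63 FPKM in the soma against 2.27 and 2.89 FPKM in the germline.

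Over all genes tested, 8.64% were called higher in the soma and 3.59% higher in the germline. Other genes of the pathway were taken from 4 lists. The first held the 16 other nuclear receptor genes of the fly. Of these, 6 were at 0 in all 4 libraries, 3 more were under the filter of 0.1 FPKM, and 7 were tested, of which 1 was called, in the soma, with a median log2 fold change of 0.79. The gene called was Hr4, an ecdysone-induced receptor gene, with 5.45 and 3.85 FPKM in the soma against 0.539 and 0.575 FPKM in the germline (log2 fold change 2.83, limma adjusted p = 0.0432, standard error 0.69). In the soma Hr78 was at 12.3 and 15.1 FPKM, in the germline at 15.3 and 12.5 FPKM. Hnf4 was at 8.03 and 9.80 FPKM in the soma against 4.68 and 5.54 FPKM in the germline, and neither was called (limma adjusted p = 0.966 and 0.251).

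All 13 genes of the list of EcR cofactors and chaperones were tested, 1 was called higher in the soma and 1 in the germline, and the median log2 fold change was -0.51. DOR, which encodes an EcR coactivator also tied to autophagy, was at 31.5 and 89.9 FPKM in the soma against 1.45 and 0.812 FPKM in the germline (log2 fold change 5.49, limma adjusted p = 0.0033, standard error 0.58). This log2 fold change was above that of each of the 9 genes, a difference that was not tested. rig, whose product binds several ecdysone-cascade receptors, was at 12.5 and 11.0 FPKM in the soma against 48.7 and 47.6 FPKM in the germline (log2 fold change -2.03, limma adjusted p = 0.00589, standard error 0.26). The chaperone genes Hsc70-4 (863 and 1151 FPKM in the soma against 1791 and 1479 FPKM in the germline) and Hsp83 (298 and 621 FPKM in the soma against 1246 and 893 FPKM in the germline) had both germline libraries above both soma libraries and were not called. In 8 of the 13 genes the germline libraries lay above the soma libraries, as in 25.8% of all genes tested.

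Of 19 other ecdysone-induced genes, 18 were in the table, 7 of these were at 0 in all 4 libraries and 10 were tested. Of the 10, 4 were called on the soma side and 1 on the germline side, with a median log2 fold change of 0.96. The larval and pupal response genes ImpE1, ImpE2, ImpL1, Fbp1, Edg78E, Edg84A and Blimp-1 were the 7 at 0. Among the genes called was Eip93F, a transcription factor gene of late ecdysone responses, with 4.17 and 7.42 FPKM in the soma against 0.188 and 0.217 FPKM in the germline (log2 fold change 4.23, limma adjusted p = 0.0188, standard error 0.78). vri, a bZIP repressor gene, was at 4.09 and 7.19 FPKM in the soma, with 1 and 4 reads in the germline (log2 fold change 4.53, limma adjusted p = 0.0198). ImpL2, whose product binds insulin-like peptides, was at 55.4 and 85.1 FPKM in the soma against 3.19 and 5.48 FPKM in the germline (log2 fold change 4.01, limma adjusted p = 0.0025). The cell death gene rpr, with 129 and 5 soma reads, had no germline read, a level at least 3.82-fold higher in soma libraries when computed against 3 reads in each germline library. Eip55E was called higher in the germline (log2 fold change -1.42, limma adjusted p = 0.0205). The caspase gene Dronc (15.1 and 13.3 FPKM in the soma against 6.25 and 13.3 FPKM in the germline) and the zinc finger gene crol (15.4 and 13.01 FPKM in the soma against 4.59 and 8.73 FPKM in the germline) were not called.

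The last list held 5 genes for hormone import, oxidation and the juvenile hormone receptors, the latter known to work with tai as well. The oxidase gene Eo was at 0 in all 4 libraries, and 1 of the 4 genes tested was called, in the soma. This was Oatp74D, the gene of the ecdysone importer, with 3.10 and 4.11 FPKM in the soma (552 and 21 reads) and 2 reads in each germline library. On the reads summed over libraries it was 21.3 times higher in the soma (95% exact interval 8.27 to 78.4, counting error only), and 3.89 higher on the log2 scale (limma adjusted p = 0.0298, standard error 0.84). Of the juvenile hormone genes, gce was at 3.02 and 2.51 FPKM in the soma against 0.234 and 0.190 FPKM in the germline, and Kr-h1 at 2.68 and 5.96 against 0.192 and 0.572 FPKM. Neither was called, with log2 fold changes of 3.20 for gce (limma adjusted p = 0.0545) and 3.21 for Kr-h1 (limma adjusted p = 0.0589).

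**Figure D4:**
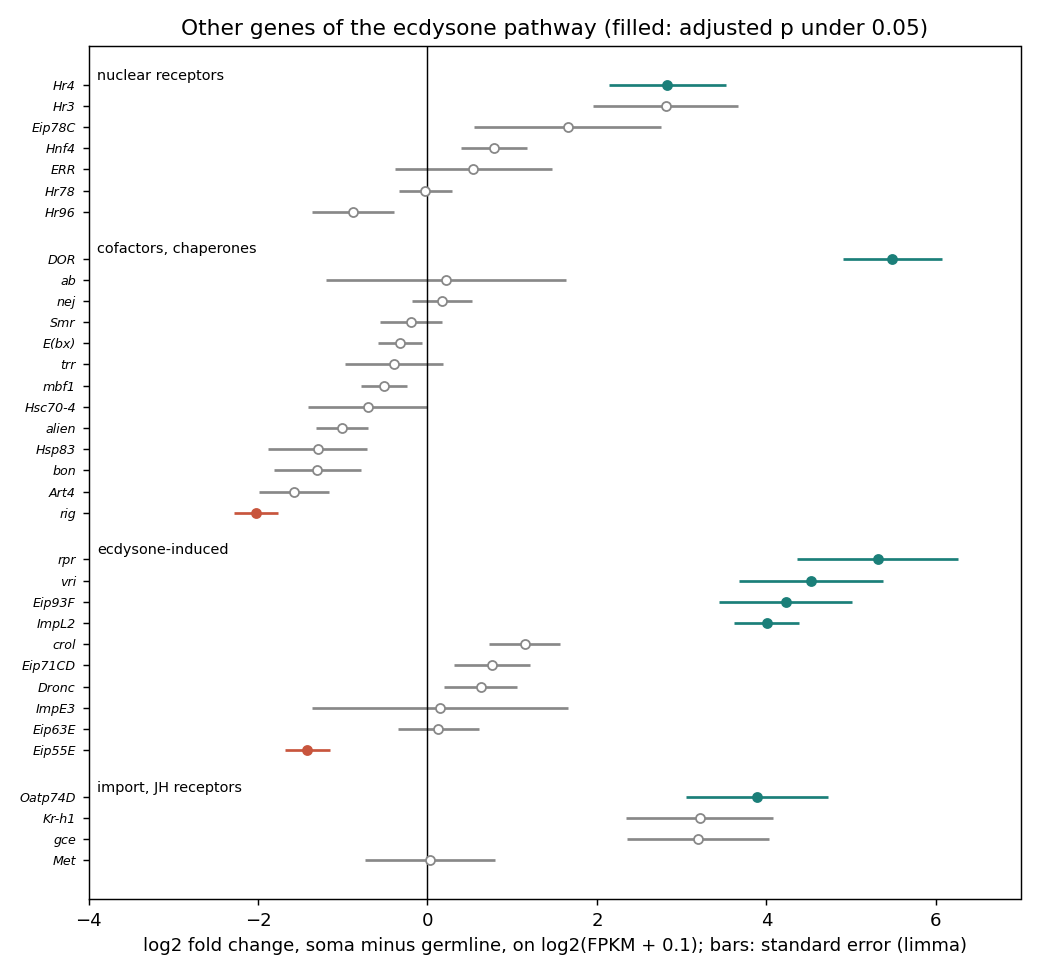
Log2 fold change, soma minus germline, with its standard error from limma, for the tested genes of the 4 other pathway lists (filled green, called higher in the soma; filled red, called higher in the germline; open grey, not called). DOR at 5.49 and rpr at 5.31 stand furthest to the soma side, and rig at -2.03 furthest to the germline side. The value of rpr depends on the pseudocount, since it has no germline reads.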

How the data were processed

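Ovary TRAP libraries of 2 groups, soma and germline, with 2 libraries each, were analysed from 1 table of FPKM values deposited by the authors, 1 column per library and with decimal commas, here converted to points. The processing notes in the labels name cutadapt, FastQC, HISAT2, DESeq2 and the build dm6, without roles or versions. FPKM times exon length (Ensembl release 115, BDGP6.54, the assembly of dm6), divided by 1 constant per library, gave whole reads within 0.03 reads in all libraries for 10088 of 10518 genes above 0. Median-ratio size factors of the FPKM were 1.02 in all 4 libraries, so the deposited FPKM values were already on a common scale.

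Soma was compared with germline with limma 3.58.1 in R 4.3.3 (lmFit, eBayes with trend) on log2(FPKM + 0.1), on genes whose mean reached 0.1 FPKM, with no block for replicate number. Alternatives changed the pseudocount, filter, scaling, trend, block or model, or left out 1 library. Nothing in the labels says that the libraries came from separate dissections, so p-values measure only the spread between them. Python 3.11.15, pandas 2.3.3 and scipy 1.17.1 were used for the rest. Intervals cover counting error only. Deviations of same-numbered libraries from their group means had a correlation of -0.0656 across genes.

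Members and lists were chosen with earlier results of these data known. Named genes are all members, and of each list the 4 called genes with the largest change and the 2 highest uncalled ones, and the 3 genes most like EcR. Eip55E and the genes at 0 were added after their values were seen. CSN2 was matched as alien through RefSeq synonyms, and W, vas and wupA were not matched. Sequences were not used here.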

Additional observations from a re-analysis of the deposited data

How the results depend on the processing

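The direction of all 9 genes was the same under the 9 other settings tried on the 4 libraries. In each of them tai, Eip74EF, Eip75B, ftz-f1 and Cyp18a1 had an unadjusted limma p under 0.05. That threshold is wide, since 855 to 2520 of all genes passed it in these settings, in either direction. In the main fit 2450 of 8823 did. Of the 9 genes, 5 had an adjusted limma p under 0.05 in the main fit, all in the soma. This number was 4 with a pseudocount of 0.01 and with quantile normalization (without Eip75B in both), and 3 with all genes above 0. It was 1 (tai) without the eBayes trend and 1 (Eip74EF) with limma-voom on recovered reads. At more than 5-fold and an unadjusted limma p under 0.05 it was 3. With 1 library left out, the calls at an adjusted limma p under 0.05 were not kept. In these fits the lone library of a group is assumed to vary like the others. Only usp changed sign, with -0.98 to 0.12 when 1 library was left out, the positive value being that without soma replicate 2. Over all genes, the 762 soma and 317 germline calls became 451 and 37 without the trend and 272 and 8 with limma-voom. They were 0 to 564 and 0 to 11 with 1 library left out. At more than 5-fold 95 germline genes passed. With a replicate block 581 germline genes were called, and the block changed no call of the 9 genes. In the limma-voom fit the library totals included rRNA reads. These made up 6.34% and 74.7% of soma replicates 1 and 2, and 65.8% and 56.1% of germline replicates 1 and 2. The scaling of that fit thus differed from that of the FPKM, as well as its model. The causes of the differences between settings were not tested. Depth limits the germline values of Eip74EF and Cyp18a1 and the soma replicate 2 values of usp and E23, each from 19 reads or fewer.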
